A study of Sus scrofa with 32 samples.

Results

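OTC, ARG1, NAGS and GLUL are 4 genes of nitrogen disposal in the liver, measured here through pregnancy in the pig. They were read from all non-control probes on the array whose transcript accession belongs to one of these pig genes. They are 4 of the 1904 genes that could be named on the array. They had 8 of its 43603 probes, with 1 probe for OTC (NM_001164002), 1 for ARG1 (NM_214048), 2 for NAGS (NM_001097520) and 4 for GLUL (NM_213909). All 8 probes were among the 29358 that passed the filter on dim signal, and each was well above background in every group. The livers came from pig fetuses at gestational days 37, 50, 70 and 110, and at each day 4 runts were set against 4 control fetuses, so that 32 arrays fell into 8 groups. Runts were fetuses with growth restriction that arose because the uterus had been overcrowded by surgery, and the controls grew in the same kind of crowded uterus. All gilts, the young sows that carried both fetus types, had lost one uterine horn and one ovary before insemination. The 4 samples of a group came from 4 different gilts, and the labelling protocol speaks of littermate pairs of a growth-restricted fetus and a control.

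The urea cycle turns ammonia into urea in hepatocytes. NAGS makes N-acetylglutamate, the activator that the first enzyme of the cycle needs. OTC, the mitochondrial ornithine carbamoyltransferase, joins ornithine to carbamoyl phosphate to give citrulline, and ARG1, arginase, closes the cycle in the cytosol by splitting arginine into urea and ornithine. GLUL, glutamine synthetase, binds ammonia to glutamate. In the adult liver of rodents and humans the cycle enzymes are found mainly in periportal hepatocytes, whereas GLUL is confined to the hepatocytes around the central vein and takes up ammonia that has escaped the cycle.

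Levels are given as the log2 of a probe's processed fluorescence signal minus the log2 of the 75th percentile of its array, so that 0 is the signal at that percentile. Levels of different probes are not comparable with each other. A probe passed between days if it moved by 2-fold or more with an adjusted p below 0.05, and it passed between fetus types on the adjusted p alone. The verbs rose and fell are kept for probes that passed. These tests were made with limma over all 29358 probes and all 32 arrays, with Benjamini-Hochberg adjustment. Per array, 51.3% to 69.4% of spots cleared the background, 0 were saturated, and an array's 75th percentile lay between 177 and 460 units of intensity. Each day had its own position on the slides, apart from 1 array (day 50 runt replicate 1), so day and position cannot be told apart. No slide held a runt and a control of the same day, so runts and controls of a day were always compared across slides. The arrays were from whole liver, in which fewer cells of a type and less RNA per cell cannot be told apart. Of the hepatocyte markers 7 of 11 were measured, and the summed linear signal of these 7 had group medians from 2254 to 3352 times the 75th percentile. The same sum for 3 measured kidney and gut markers lay between 0.306 and 1.03 over all 32 arrays.

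ARG1 held a steady level until day 70 and was lower at day 110, in both fetus types. At day 70 the runts had 6.35, 6.28, 6.41 and 6.14 (log2 level, replicates 1 to 4) and the controls 6.55, 6.40, 6.35 and 6.10. At day 110 the runts had 4.95, 4.70, 4.73 and 4.74, and the controls 5.16, 4.90, 5.42 and 4.76. Every day 110 array therefore lay below every array of the earlier days of its own fetus type, and runts and controls overlapped at each day.

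In the runts ARG1 fell 2.86-fold between day 70 and day 110 (log2 change -1.52, SE 0.16, adjusted p = 2.6e-08). In the controls the fall was 2.44-fold (-1.29, SE 0.16, adjusted p = 4.6e-07). Against day 37, the day 110 level was lower by 2.63-fold in runts (-1.39, adjusted p = 3.6e-08) and by 2.24-fold in controls (-1.17, adjusted p = 6.9e-07). Over all probes 6.83% fell by this rule between days 70 and 110 in runts and 7.18% in controls, and between days 37 and 110 12.3% in runts and 14.3% in controls. The share that lay lower on every array was 12.4% in runts and 12.8% in controls for day 110 against day 70, and 18.3% in runts and 22.7% in controls against day 37. Before day 70 the steps were small. ARG1 changed by -0.18 from day 37 to day 50 in runts (adjusted p = 0.475) and by -0.04 in controls (adjusted p = 0.927). From day 50 to day 70 the changes were 0.30 (adjusted p = 0.165) and 0.16 (adjusted p = 0.476). The group means of days 37, 50 and 70 lay between 5.99 and 6.35, so day 110 was the one day that stood apart.

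The fall of ARG1 was also seen within slides. On the 4 slides that held a day 110 and a day 70 array of one fetus type, the difference was -1.40 and -1.58 in runts and -1.39 and -1.499 in controls. On the 2 slides with day 110 and day 37 it was -1.59 in a runt pair and -0.53 in a control pair. The falls of runts and controls differed by -0.23, a difference that did not pass (95% interval -0.69 to 0.23, unadjusted p = 0.323, adjusted p = 1). At day 110 ARG1 was 4.78 ± 0.11 in runts and 5.06 ± 0.29 in controls (SD, n = 4 each), a difference of -0.28 with a 95% interval from -0.61 to 0.05 (adjusted p = 0.9997). Taken by same-numbered pairs the runt was lower in 4 of 4 at day 110, by differences of -0.68 to -0.02, and in 4 of 4 at day 50 (-0.40 to -0.06), against 2 of 4 at days 37 and 70. Its mean runt effect over the 4 days was -0.14 (95% interval -0.31 to 0.02, adjusted p = 0.619), where 0.255% of all probes passed.

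Blood cell markers moved in the same step. All 5 measured erythroid markers of 14 listed (HBE1, EPOR, TFRC, RHCE and AQP1) fell between day 70 and day 110 in both fetus types, with a median log2 change of -3.70 in runts and -3.19 in controls. Their summed signal ranged from 1.84 to 7.58 times the 75th percentile in day 110 runts and from 60.6 to 90.5 in day 70 runts. In controls it ranged from 2.75 to 13.7 at day 110 and from 54.7 to 93.6 at day 70. The embryonic globin HBE1 averaged -2.46 in day 110 runts and -1.74 in day 110 controls (log2 level) and was above background on all 8 arrays. Of 6 measured granulocyte markers of 15 listed, 5 fell in each fetus type, and their summed signal ranged from 14.9 to 55.2 in day 110 runts against 160 to 220 in day 70 runts. In controls the granulocyte sum ranged from 49.1 to 66.2 at day 110 against 203 to 316 at day 70. All 5 measured proliferation genes of 10 listed fell as well. Of 7 measured hepatocyte markers 0 passed in either direction in this step and 6 lay below 0 in each fetus type, with medians of -0.42 in runts and -0.18 in controls. Of all probes 6.83% in runts and 7.18% in controls fell here, and 4.41% and 5.39% rose, so few calls among 7 genes do not set these markers apart. The part of these cells in the fall of ARG1 was not tested.

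**Figure D1:**
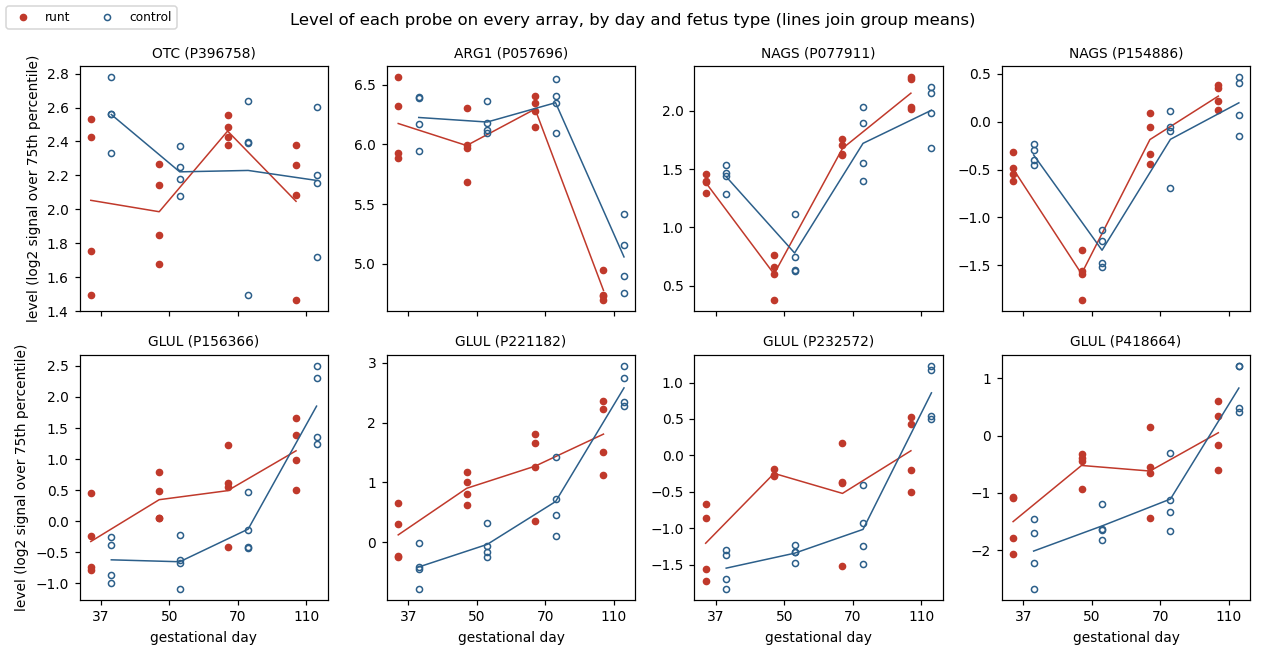
Level of each of the 8 probes on every array (log2 signal over the array's 75th percentile) by gestational day (days evenly spaced, not to scale), with runts as filled red points left of controls as open blue points, and lines joining the group means. ARG1 lies between 5.69 and 6.56 until day 70 and between 4.70 and 5.42 at day 110, NAGS has its lowest levels at day 50, and the day 50 runts lie above the day 50 controls on all 4 GLUL probes.

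OTC held a level that passed no test between days or between fetus types. Its group means lay between 1.99 and 2.56 on the log2 scale over the 8 groups. At day 37 the runts had 1.76, 2.43, 2.53 and 1.495 and the controls 2.33, 2.78, 2.56 and 2.56. At day 50 the levels were 2.15, 1.68, 2.27 and 1.85 in runts and 2.38, 2.18, 2.25 and 2.08 in controls. The runts thus spread more widely than the controls at day 37 (SD 0.51 against 0.18), and the groups overlapped at both days.

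At day 70 OTC was at 2.48, 2.43, 2.38 and 2.56 in runts and at 2.39, 2.64, 2.40 and 1.495 in controls, and at day 110 at 2.08, 2.38, 1.46 and 2.26 in runts and 2.60, 2.21, 2.16 and 1.72 in controls. Among the runts the day 70 arrays lay above all day 50 arrays (0.48, SE 0.24, adjusted p = 0.147) and above all day 110 arrays (day 110 over day 70, -0.41, SE 0.24, adjusted p = 0.223). Of all probes, 13.8% lay higher on every array of day 70 than of day 50 in runts, and 12.4% lower on every array of day 110 than of day 70, so such a separation was common on the array. Between days 37 and 110 the change was -0.01 in runts (adjusted p = 0.986) and -0.39 in controls (adjusted p = 0.173).

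The lowest unadjusted p of OTC was between runts and controls at day 37 (-0.51, 95% interval -0.995 to -0.02, unadjusted p = 0.0432, adjusted p = 1). The runt was lower in 4 of 4 same-numbered pairs there, by 0.0275 to 1.07. Over all probes 2.55% had an unadjusted p under 0.05 at day 37, and 0% passed after adjustment. At days 50, 70 and 110 the runt minus control differences of OTC were -0.24, 0.23 and -0.12, with 95% intervals that all reached across 0 and no further than -0.72 and 0.72.

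NAGS had its lowest group means at day 50 and its highest at day 110. On the brighter probe (A_72_P077911) the day 37 runts had 1.29, 1.46, 1.39 and 1.40 and the day 37 controls 1.29, 1.45, 1.47 and 1.54. At day 50 the runts had 0.76, 0.60, 0.66 and 0.38 and the controls 0.63, 0.75, 0.63 and 1.11. At day 70 they had 1.75, 1.63, 1.71 and 1.63 in runts and 1.56, 1.90, 2.04 and 1.40 in controls. Every day 50 array lay below every day 37 and day 70 array of its fetus type, on this probe and on the dimmer one (A_72_P154886).

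In runts the dimmer NAGS probe fell 2.14-fold between days 37 and 50 (log2 change -1.10, SE 0.16, adjusted p = 1.3e-04), to a mean of -1.59 ± 0.21 at day 50, against -0.49 ± 0.13 at day 37 (SD, n = 4 each). This call held in 17 of 20 settings, over which the adjusted p ran from 4.7e-05 to 0.211. It was lost under normexp background correction (-0.36, adjusted p = 0.107) and within slides 1 to 3 alone (-1.31, adjusted p = 0.211). With the local background capped before normexp, a variant chosen after seeing the data, the change was -0.78 and under 2-fold. On the brighter probe the change was -0.78 (SE 0.14, adjusted p = 5.3e-04), under 2-fold. The controls changed by -0.99 on the dimmer probe (SE 0.16, adjusted p = 6.4e-04), just under 2-fold, and by -0.65 on the brighter probe (SE 0.14, adjusted p = 0.00501). Separation of this kind, lower on every array at day 50, was shown by 6.28% of all probes in runts and 7.73% in controls. A fall by the rule used here was found for 0.896% of all probes in runts and 0.33% in controls, and an adjusted p under 0.05 at any fold for 15.4% in runts and 7.41% in controls. Runt and control courses differed in this step by -0.10 on the dimmer probe (95% interval -0.57 to 0.37) and by -0.13 on the brighter (-0.53 to 0.27), which did not pass (adjusted p = 0.9999 each, with 0.00341% of all probes passing).

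Between days 50 and 70 both NAGS probes rose in runts, by 1.40 (2.64-fold, SE 0.16, adjusted p = 3.1e-06) on the dimmer and by 1.08 (2.11-fold, SE 0.14, adjusted p = 9.3e-06) on the brighter probe. Normexp lowered the runt change of the dimmer probe to 0.57 (adjusted p = 0.0528, with 9.9e-07 to 0.309 over 20 settings), and the call was lost. In controls the dimmer probe rose by 1.16 (2.23-fold, adjusted p = 3.4e-05) and the brighter changed by 0.94 (1.92-fold, adjusted p = 5.9e-05). Rises by this rule covered 3.29% of all probes in runts and 2.95% in controls, and levels higher on every array 13.8% in runts and 14.1% in controls. Leaving out 1 of 2 arrays at a time (day 50 control replicate 4, or day 70 control replicate 4) took the brighter probe past 2-fold too, so that 2 probes passed in controls. Within slides the later day was higher on 5 of 5 slides that held a day 70 and a day 50 array of one fetus type, on both probes, from 0.44 to 1.54 on the dimmer one.

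Lymphocyte, Kupffer cell and monocyte markers moved over the same days. The summed signal of the 6 measured T, B and natural killer cell markers of 8 listed ranged from 0.756 to 1.01 in day 50 runts against 2.51 to 3.099 in day 37 runts, and from 1.25 to 1.76 in day 50 controls against 2.68 to 3.41 in day 37 controls. At day 70 it ranged from 1.21 to 1.51 in runts and from 1.20 to 2.94 in controls. Of these 6 markers 1 rose and 2 fell between days 37 and 50 in runts, and 1 rose and 1 fell in controls. Of the 6 measured Kupffer cell and monocyte markers of 13 listed, 0 passed between days 37 and 50, and 4 rose between days 50 and 70 in each fetus type. Their sum ranged from 40.2 to 54.2 in day 70 runts against 22.7 to 26.1 in day 50 runts, and from 38.7 to 54.3 in day 70 controls against 24.2 to 33.1 in day 50 controls. Across the array 4.92% of all probes rose and 0.896% fell between days 37 and 50 in runts, and 3.05% and 0.33% in controls. Between days 50 and 70, 3.29% of all probes rose in runts and 2.95% in controls. With so few markers measured, nothing is read from their counts. The part of these cell types in the NAGS changes was not tested.

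From day 70 to day 110 the change of NAGS was smaller, 0.47 and 0.45 in runts (adjusted p = 0.0123 and 0.0403) and 0.28 and 0.38 in controls (adjusted p = 0.134 and 0.0833). At day 110 the brighter probe reached 2.02, 2.03, 2.27 and 2.29 in runts and 1.98, 2.15, 1.68 and 2.20 in controls. Set against day 37, day 110 was higher on every array of both fetus types and both probes, by 0.77 and 0.76 in runts (adjusted p = 4.2e-05 and 3.1e-04) and by 0.57 and 0.54 in controls (adjusted p = 0.00109 and 0.00614), all under 2-fold. Of all probes 22.7% in runts and 23.2% in controls were higher on every array at day 110 than at day 37. The order of the days on both probes was therefore day 50, day 37, day 70 and day 110 by group means. Neighbours overlapped between days 70 and 110 in controls on both probes, and between days 37 and 70 on both probes in controls and on the dimmer one in runts.

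No runt effect on NAGS passed. Differences between runts and controls lay between -0.25 and 0.15 over the 2 probes and 4 days, and their 95% intervals reached no further than -0.58 and 0.43. The mean runt effect was -0.03 (95% interval -0.17 to 0.11) and -0.08 (-0.25 to 0.09). The 2 probes followed each other closely across the 32 arrays (Pearson r = 0.959), and less so within groups (r = 0.602 for the deviations from the group means).

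GLUL was the member that rose most before term, and the one whose runts and controls stood furthest apart. On its brightest probe (A_72_P221182) the runts had 0.66, -0.25, -0.23 and 0.30 at day 37 and the controls -0.02, -0.78, -0.45 and -0.42. At day 50 the runts had 1.01, 1.17, 0.62 and 0.81 and the controls -0.16, -0.06, 0.33 and -0.25. The runts were higher at day 50 on every array, whereas the groups overlapped at day 37.

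At day 70 this probe had 1.25, 1.67, 1.82 and 0.36 in runts and 0.10, 0.46, 1.43 and 0.73 in controls. At day 110 it had 2.23, 1.13, 2.36 and 1.51 in runts and 2.29, 2.95, 2.34 and 2.75 in controls. The order of fetus types was thus turned at day 110, where most controls lay above most runts, with overlap at both days. Day 110 was above every day 37 array in both fetus types, and above every day 70 array in controls but not in runts. As given for NAGS, 22.7% of all probes in runts and 23.2% in controls were higher on every array at day 110 than at day 37.

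Between days 37 and 110 all 4 GLUL probes rose in runts, by 1.27 to 1.69 on the log2 scale (2.41-fold to 3.22-fold, SE 0.30 to 0.34, adjusted p from 4.9e-05 to 9.3e-04). In controls all 4 rose too, by 2.41 to 3.00 (5.30-fold to 7.97-fold, adjusted p from 5.8e-09 to 9.7e-07). Rises by this rule covered 14.9% of all probes in runts and 15.1% in controls. The step from day 70 to day 110 was 0.54 to 0.67 in runts (adjusted p from 0.157 to 0.221), where 4.41% of all probes rose. In controls this step passed on all 4 probes, with 1.87 to 1.98 (3.67-fold to 3.94-fold, adjusted p from 2.6e-05 to 7.1e-05), where 5.39% of all probes rose and 12% were higher on every array. The erythroid, granulocyte and proliferation markers that fell in this step did so in both fetus types, and their part in the GLUL rise was not tested.

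Earlier steps of GLUL did not pass in either course. From day 37 to day 50 the runts changed by 0.67 to 0.98 over the 4 probes, with an adjusted p under 0.05 on 2 of them (0.0446 and 0.0478) and all under 2-fold. The controls changed by -0.03 to 0.44 in that step (adjusted p 0.476 and above). Of all probes 4.92% rose in that step in runts and 3.05% in controls. From day 50 to day 70 the runts changed by -0.27 to 0.37 and the controls by 0.33 to 0.72, with adjusted p of 0.0874 and above.

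**Figure D2:**
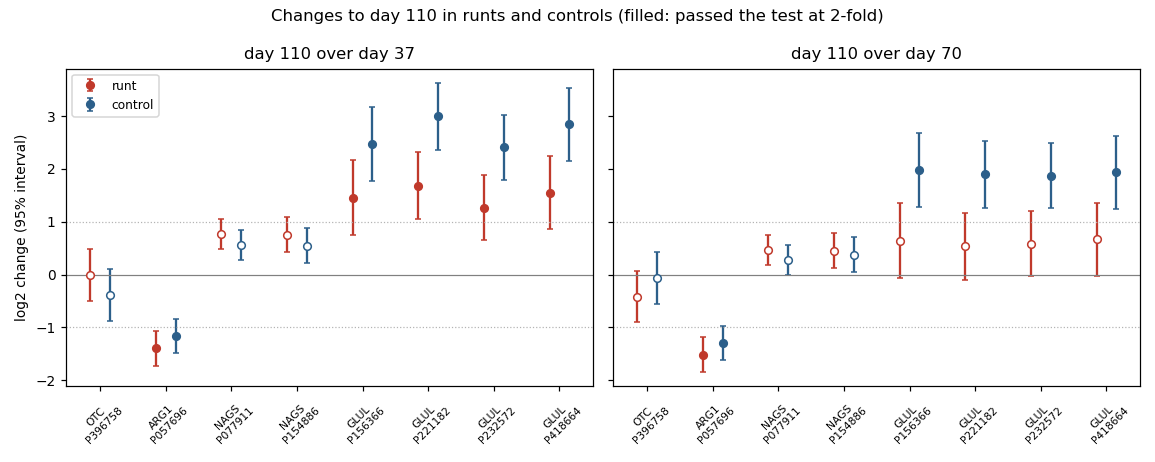
Log2 change to day 110 from day 37 (left) and from day 70 (right) for the 8 probes, in runts (red) left of controls (blue), with 95% intervals from the fit. Filled points passed at an adjusted p under 0.05 and 2-fold, and dotted lines mark 2-fold. ARG1 is below -1 in both panels, the 4 GLUL probes are at 0.54 to 0.67 in runts and 1.87 to 1.98 in controls for day 110 over day 70, and NAGS and OTC stay within 1 of 0.

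Within slides the GLUL change from day 70 to day 110 was smaller in the runt pairs than in the control pairs. On the brightest probe day 110 differed from day 70 by 0.98 and -0.53 on the 2 slides with runt pairs, and by 2.18 and 2.49 on the 2 slides with control pairs. Between day 110 and day 37 the differences were 2.59 on a slide with a runt pair and 2.79 on one with a control pair.

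The test of the difference between the courses, runts minus controls, gave -1.27 to -1.37 for day 110 over day 70 on the 4 probes. Their unadjusted p ran from 0.00415 to 0.0129, and the adjusted p was 1 on each. Among all probes 1.74% had an unadjusted p under 0.05 in this test and 0% passed after adjustment. For day 110 over day 37 the differences were -1.01 to -1.31 (unadjusted p from 0.00566 to 0.0471, adjusted p = 0.9997), where 1.87% of all probes were under 0.05 unadjusted. The difference between the courses thus did not pass on either span.

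Between runts and controls of the same day the GLUL difference had one sign at days 37, 50 and 70 and the other at day 110, on all 4 probes. At day 50 the runts exceeded the controls by 0.94 to 1.10 (1.92-fold to 2.14-fold), and the groups did not overlap on any of the 4 probes. Of all probes 3.11% lay higher in runts on every array at day 50. The unadjusted p ran from 0.00229 to 0.00738 and the adjusted p from 0.235 to 0.383, so GLUL was not among the 0.0817% of probes that passed. An unadjusted p under 0.05 was found for 7.53% of all probes at that day. One spot was missing among these values, since day 50 runt replicate 3 was marked as an outlier by the scanner software on probe A_72_P232572, which left 3 runts there. The 4 probes measure one transcript and are not independent of each other, with Pearson r from 0.964 to 0.986 across arrays and from 0.881 to 0.943 within groups.

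At day 37 GLUL was 0.29 to 0.54 higher in runts (adjusted p = 1), with 95% intervals that reached from -0.41 to 1.21 over the 4 probes. At day 70 it was 0.49 to 0.62 higher (adjusted p = 0.9999). At day 110 it was lower in runts by log2 differences of -0.72 to -0.79 (unadjusted p from 0.0135 to 0.0465, adjusted p from 0.993 to 0.9997), where 4.41% of all probes had an unadjusted p under 0.05 and 0.0136% passed. Taken by same-numbered pairs on the brightest probe, the runt was higher in 4 of 4 pairs at day 37, 4 of 4 at day 50 and 3 of 4 at day 70, and lower in 3 of 4 at day 110.

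The same comparison was made in slides 1 to 3 and, apart from them, in slides 4 to 9. The first set held 1 runt and 2 controls at day 50, 1 runt and 2 controls at day 70, and 2 runts and 1 control at day 110, and the second set 3 and 2, 3 and 2, and 2 and 3. At day 50 the runt minus control difference on the brightest GLUL probe was 0.77 in the first set and 1.04 in the second, and at day 110 it was -0.82 and -0.84. At day 70 it was -0.73 in the first set and 1.30 in the second, so the sign differed between the sets.

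The mean runt effect of GLUL was 0.28 to 0.32 (adjusted p from 0.531 to 0.647). Whether the runt effect depended on the day was asked by an F-test. It gave unadjusted p from 0.00162 to 0.0103 on the 4 GLUL probes, where 1.57% of all probes had an unadjusted p under 0.05, and an adjusted p of 0.9999, where 0.00341% passed. OTC, ARG1 and the 2 NAGS probes had unadjusted p from 0.202 to 0.683 in the same test. The summed erythroid signal at day 50 ranged from 59.5 to 104 in runts and from 100 to 113 in controls, with medians of 87.8 in runts and 110 in controls (in units of the array's 75th percentile). At day 110 its medians were 4.49 in runts and 6.45 in controls, with ranges that overlapped. The granulocyte sum at day 110 had a median of 30.5 in runts and 60.1 in controls. The sum of the T, B and natural killer cell markers was lower in every runt at day 50 (0.756 to 1.01 in runts, 1.25 to 1.76 in controls) and higher in every runt at day 110 (1.61 to 1.84 in runts, 1.11 to 1.53 in controls). The sum of the 4 measured bile duct markers of 6 listed was higher in every runt at day 50. It was 14.01 to 15.2 in runts and 11.7 to 13.98 in controls, so the ranges nearly touched. Among single probes 3.11% lay higher and 3.21% lower in runts on every array at day 50, and 1.17% higher at day 110. No such share was computed for sums of markers. The part of other cell types in the GLUL differences was not tested.

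**Figure D3:**
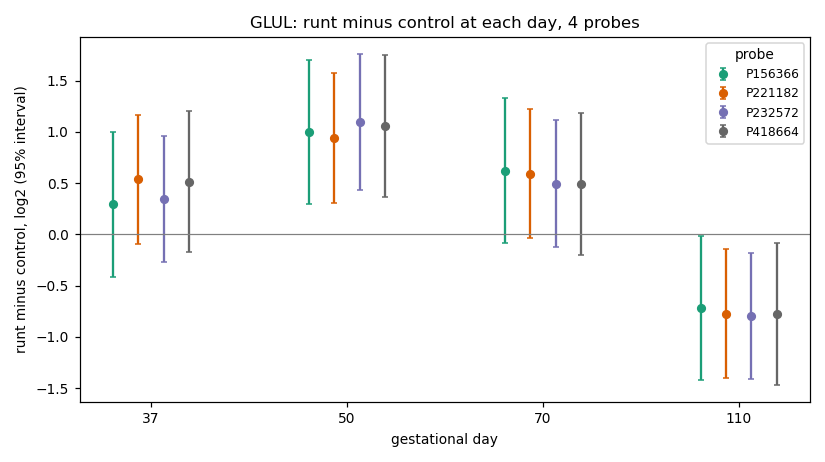
Runt minus control difference of the 4 GLUL probes (log2) at each gestational day, with 95% intervals from the fit. The differences are 0.94 to 1.10 at day 50 with intervals above 0, and -0.72 to -0.79 at day 110 with intervals below 0 before adjustment over all probes.

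Among themselves the 4 genes took different courses. Across the 32 arrays, on the brightest probe of each gene, ARG1 and GLUL correlated at -0.70, ARG1 and NAGS at -0.53, and NAGS and GLUL at 0.55 (Pearson r). These points share slides, day and fetus type, and the values are a description. Within groups, where the means of day and fetus type are removed, the same pairs were at -0.15, -0.09 and 0.17. For OTC the values within groups were 0.54 with ARG1 and -0.51 with GLUL. Across the 32 arrays OTC correlated with ARG1 at 0.37 and with GLUL at -0.33.

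The genes most like each member over the 32 arrays were sought among 1595 other named genes on the array. For ARG1 they were RBM38 (r = 0.961), an RNA-binding protein, LOC595122 (0.953) and DNAJA4 (0.946), a co-chaperone. These fell more steeply than ARG1, RBM38 by -3.21 in runts (adjusted p = 1.1e-09) and -2.78 in controls (adjusted p = 1.6e-08) between days 37 and 110. The gene most opposed to ARG1 was KLF9 (r = -0.913), a transcription factor that responds to glucocorticoid and thyroid hormone. KLF9 rose by 3.47 in runts and 3.98 in controls over the same span. By ranks (Spearman) the correlations with ARG1 were weaker, at 0.834 for RBM38, 0.836 for LOC595122, 0.761 for DNAJA4 and -0.657 for KLF9.

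For NAGS the most alike was SIRT3 (r = 0.904), the mitochondrial deacetylase, followed by PGLYRP2 (0.863), which makes a serum amidase, and NDRG2 (0.858). SIRT3 shared the low point at day 50. It changed by -0.88 from day 37 to day 50 in runts (adjusted p = 6.0e-04) and by -0.70 in controls (adjusted p = 0.00717), both under 2-fold. It then rose by 1.04 from day 50 to day 70 in runts (adjusted p = 5.6e-05) and changed by 0.93 in controls (adjusted p = 2.1e-04). UCP2, a mitochondrial inner membrane carrier, was the most opposed (r = -0.837).

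For GLUL the most alike were F12 (r = 0.888), coagulation factor XII made by hepatocytes, and FAM209B (0.874), and the most opposed was CITED1 (r = -0.883), a transcriptional coregulator. F12 rose by 1.41 in runts and 1.72 in controls between days 37 and 110. CITED1 fell by 6.78 in runts and 6.83 in controls on the log2 scale. OTC had no such close match. CAST (r = 0.644), the calpain inhibitor calpastatin, CWF19L2 (0.643) and ACSL4 (0.607), which activates arachidonic acid, came nearest, and IFRD1 (r = -0.549) was the most opposed.

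The other enzymes and carriers of the cycle carried no named probe, so 0 of 7 could be read here (CPS1, ASS1, ASL, ARG2, SLC25A15, SLC25A13 and SLC25A2). Of 21 genes of glutamine, glutamate and ammonia handling 6 were measured. Between days 37 and 110, 0 of 6 passed in runts and 1 in controls, with list medians of 0.39 in runts and 0.23 in controls. Over all probes the medians of this step were 0.04 in runts and -0.02 in controls, and 14.9% rose and 12.3% fell in runts against 15.1% and 14.3% in controls, so a count of 0 or 1 among 6 is near the background. The 1 was RHCG, an ammonia channel of the Rhesus family, at 1.69 in runts (adjusted p = 0.127) and 2.23 in controls (SE 0.91, adjusted p = 0.0413). RHBG, the Rhesus family ammonia channel of the basolateral membrane, rose from day 50 to day 70 by 1.51 in runts (adjusted p = 0.00892) and by 1.24 in controls (adjusted p = 0.0316).

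Both aspartate aminotransferases, which feed aspartate to the cycle, stayed within 2-fold between days 37 and 110. Cytosolic GOT1 was at 0.28 in runts and 0.56 in controls, and mitochondrial GOT2 at 0.36 and 0.38. ASNS, asparagine synthetase, was at 0.41 in runts and less than 0.01 from 0 in controls. The water and ammonia channel AQP8 was at -0.22 in runts and -0.83 in controls (adjusted p = 0.119).

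Of 23 listed genes of arginine, ornithine and polyamine use 7 were measured, and between days 37 and 110 3 rose and 1 fell in each fetus type. With the all-probe shares given above for this span, nothing is read from the direction of so few genes. SLC7A2, a transporter of cationic amino acids found in adult liver, rose by 2.47 in runts (adjusted p = 2.5e-05) and 2.37 in controls (adjusted p = 3.9e-05). SLC7A1, the cationic amino acid transporter of most other cells, fell by 1.27 in runts (adjusted p = 1.6e-07) and 1.51 in controls (adjusted p = 7.3e-09). Its second probe was at -1.07 in runts and -0.11 in controls and passed in neither.

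Of the enzymes in that list, NOS3, the endothelial nitric oxide synthase, rose by 2.08 in both fetus types, with 0.87 in runts and 0.75 in controls on its other probe, which did not pass. SAT1, which acetylates spermidine and spermine for export, rose by 1.20 in runts and 1.41 in controls, and its other probe passed as well. NOS2, the inducible nitric oxide synthase (0.55 in runts and 0.82 in controls), AZIN1, the antizyme inhibitor (-0.38 and -0.46), and SLC7A7, the y+L transporter of arginine and lysine (-0.33 and -0.43), did not pass.

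Amino acid breakdown was represented by 3 of 21 listed genes. GNMT, glycine N-methyltransferase, had a low point at day 50 in runts, where it fell by 1.39 from day 37 (adjusted p = 0.0192) and then rose by 1.64 to day 70 (adjusted p = 0.00365). In controls those steps were -0.60 and 0.82 and did not pass. GNMT at day 50 differed between runts and controls by -1.16 (adjusted p = 0.379), and the difference between the courses in either step did not pass (adjusted p = 0.9999 and 1). By day 110 GNMT had risen by 1.70 in runts and 1.67 in controls over day 37. KMO, kynurenine 3-monooxygenase, rose by 1.02 in runts and was at 0.74 in controls, and CTH, which splits cystathionine, was at -0.59 and -0.68.

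Genes known for their place in the adult liver lobule were measured in part, and their counts are set against the 14.9% of all probes in runts and 15.1% in controls that rose between days 37 and 110. Of 11 listed periportal genes 3 were measured and 3 passed between days 37 and 110 in each fetus type, FBP1, CDH1 and PIGR. FBP1, fructose bisphosphatase of gluconeogenesis, rose by 1.96 in runts and 1.75 in controls, and CDH1, E-cadherin, by 2.27 and 1.66. PIGR, the polymeric immunoglobulin receptor, was not well above background at day 37, and at day 110 it was above background on 1 of 4 runt and 3 of 4 control arrays. No bound over 1 could be given for its change in runts (adjusted p = 0.00506), and in controls it was at least 1.51-fold higher at day 110 (adjusted p = 5.6e-07).

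Of 20 pericentral genes listed beside GLUL 6 were measured, and 4 passed in runts and 3 in controls, all upward. The counts include CYP7A1 here and PIGR above, whose changes have at most a bound. NR1I3, the constitutive androstane receptor, rose by 3.41 in runts and 4.14 in controls. CYP2E1, the ethanol-oxidising cytochrome, rose by 6.72 in runts (SE 1.89, adjusted p = 0.00414) and 8.04 in controls (adjusted p = 7.8e-04), with a wide spread among arrays before day 110 (SD 2.71 in day 37 runts and 2.76 in day 37 controls). CYP7A1, which starts bile acid synthesis from cholesterol, was not well above background at day 37, and was at least 1.46-fold higher at day 110 in runts (adjusted p = 2.9e-06) and at least 1.07-fold higher in controls (adjusted p = 1.1e-04). TBX3, a transcription factor, rose by 1.12 in runts and was at 0.96 in controls. CTNNB1, beta-catenin, was at 0.61 and 0.66, and RHBG at 0.90 and 0.09.

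Regulators of urea cycle genes were measured for 9 of 19 listed. Between days 37 and 110, 6 rose in runts and 5 in controls, and 0 fell, where 14.9% of all probes rose and 12.3% fell in runts and 15.1% rose and 14.3% fell in controls. The list was chosen with earlier results of these data known, and the count is a description. HSD11B1, which regenerates active glucocorticoid, rose by 2.14 in runts and 2.23 in controls, with most of it between days 70 and 110 (1.29 and 1.57). NR3C1, the glucocorticoid receptor, rose by 1.97 and 1.68, PPARGC1A, a coactivator of fasting metabolism, by 1.75 and 1.81, and PROX1 by 1.23 and 1.54. HNF4A, a hepatocyte transcription factor, rose by 1.11 in runts and was at 0.95 in controls. SIRT5, the mitochondrial desuccinylase, was at 0.63 and 0.35, and TFAM, which packs mitochondrial DNA, at -0.81 and -0.67.

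No gene of these 6 lists passed between runts and controls at any day. Across the array 0% of all probes passed at days 37 and 70, 0.0817% at day 50 and 0.0136% at day 110. The lack of calls therefore does not set these lists apart. The listed genes furthest apart at day 50 were GNMT at -1.16, CYP2E1 at -1.08 (adjusted p = 0.939) and RHBG at -0.88 (adjusted p = 0.642), all with lower means in runts, whereas the GLUL means were higher.

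**Figure D4:**
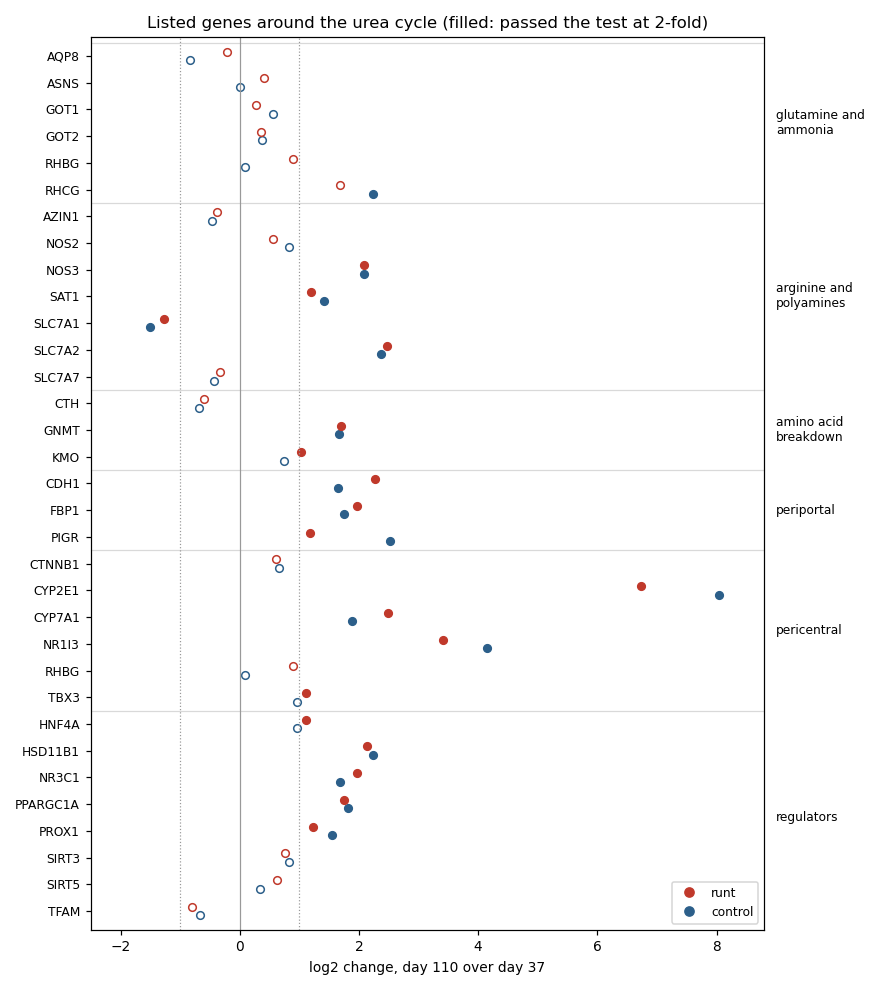
Log2 change between days 37 and 110 of the measured genes of 6 lists that are reported here, with runts (red) above controls (blue) in each row and filled points for genes that passed at an adjusted p under 0.05 and 2-fold. SLC7A1 is the one listed gene that passed below 0, and CYP2E1 and NR1I3 lie furthest to the right. CYP7A1 and PIGR were at background at day 37, so their points are fitted values and not folds.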

How the data were processed

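Total liver RNA was labelled with Cy3 and hybridised to 1-colour arrays of 45220 spots, 1 array per fetus. Per the file headers, the deposited scanner files hold spot intensities made by Feature Extraction 10.7.3.1, which subtracted background and set the flags for spots above background, saturated or outlying. The authors' deposited value table holds log2 values normalized by the authors (column medians 5.148 to 5.153, correlation with the log2 processed signal 0.9927 to 1.0 per array). Its exact normalization is not given in the sources used here. Partek is named in the submitters' processing notes, and its version is not given in the sources used here.

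Probes were named through their transcript accession with the RefSeq table of Sscrofa11.1, which matched 2683 of 43603 probes to 1904 symbols. The files name no genome build, so no coordinates are given. Control and outlier spots were left out (255 missing values), each array's processed signal was divided by its 75th percentile, and log2 was taken. Probes well above background on at least 3 of 4 arrays of 1 group or more were kept. The 8 group means were fitted with limma 3.58.1 in R 4.3.3 (24 residual degrees of freedom), with Benjamini-Hochberg adjustment over 29358 probes. Intervals are 95% intervals from that fit. For a probe with a group at background, a fold is a bound: the bright group's mean against the higher of the dim probe's signal and the lowest signal well above background, per array. The test was checked on simulated data in which the arrays varied independently, so that check did not cover slides or pairs. The number of arrays limits the precision.

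The genes, the lists around them and the marker lists were chosen with earlier results of these data known. Named with values were all probes of the 4 genes, every measured gene of the 6 lists (on its brightest probe), and for each of the 4 genes the 3 named genes with the highest and the 1 with the lowest Pearson correlation over the 32 arrays. A few genes that this rule names are not reported here, though the list counts include them. Further marker lists, for the step from day 70 to day 110, gave 4 of 6 Kupffer cell and monocyte genes higher in each fetus type and 3 of 5 endothelial genes higher in runts and 2 of 5 in controls. Of 2 stellate genes 0 were higher in runts and 1 in controls, of 4 bile duct genes 1 and 0, and of 6 lymphocyte genes 1 and 1 (with 1 lower in controls). Of 5 muscle genes 2 were higher in runts and 1 in controls, with 2 lower in each. Across the array 4.41% of all probes rose and 6.83% fell in that step in runts, and 5.39% and 7.18% in controls. These lists are small, and their counts are a description.

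Whether equal replicate numbers pair a runt with a control was checked by correlating their deviations from the group means over all probes. All 4 pairs exceeded 0.1 at days 37 (0.129 to 0.416) and 110 (0.134 to 0.190), but 3 of 4 at day 50 and 2 of 4 at day 70. Over the 4 days same-numbered pairs had a median of 0.179, with 13 of 16 above 0.1. Differently numbered pairs of the same day had a median of -0.070, with 9 of 48 above 0.1. Each replicate number was also confined to slides of its own. Number and slides therefore cannot be told apart, and this check cannot show whether a number marks a litter. No label says that a number marks a litter, so the model has no replicate block. Alternatives were normexp, quantile normalization, the authors' table, other filters and call rules, slide and replicate blocks, slide sets and leaving out each array. Normexp was run on the median signal, since the files hold no mean signal column.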

Additional observations from a re-analysis of the deposited data

Results flagged for a closer look

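ARG1 had 1 array that stood away from the rest of its group. Among the day 110 runts, replicate 1 was at a log2 level of 4.95, whereas the nearest of the others was at 4.74, and the gap was 0.842 of the group's range, above Dixon's 95% critical value for a group of 4. It was the only such value among 63 groups of 4 arrays tested over the 8 probes, and chance gives about 1 in 20. This array still lay below all day 70 runt arrays of ARG1.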

How the results depend on the processing

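Over all results 46 settings were run, of which 32 left out 1 array each. The 4 changes of ARG1 to day 110 passed under each setting that gave them, and every value called in the model as reported kept its direction (405 of 405 values over the settings). Of the values that were not called, 2710 kept and 96 turned their direction. Counts of the 8 probes that passed moved as follows. With no minimum fold there were 4 instead of 1 for runts between days 37 and 50, 2 instead of 0 for controls there, 2 instead of 1 for controls between days 50 and 70, and 3 instead of 1 for runts between days 70 and 110. With the authors' deposited table there were 2 (runts) and 1 (controls) between days 37 and 50, and 1 instead of 2 for runts between days 50 and 70, and quantile normalization gave 1 for controls in the earlier and 1 for runts in the later of these steps. Normexp gave 0 for runts between days 37 and 50, 1 for runts and 0 for controls between days 50 and 70, 5 instead of 0 between runts and controls at day 50, and 2 instead of 0 for the mean runt effect (ARG1 and OTC). This correction placed the background mean far below 0 on 6 arrays (lowest -990.6) and called 59.3% of all probes at day 50 between fetus types. With local background capped, a variant chosen after seeing the data, 0.0715% were called there, 0 of the 8 passed for runts between days 37 and 50 and 0 for controls between days 50 and 70. Slides 1 to 3 alone, with fewer arrays, gave 0 for runts in both early steps, 0 for controls between days 50 and 70, and 2 instead of 5 for controls between days 70 and 110. Slides 4 to 9 gave 1 for controls between days 37 and 50 and 2 between days 50 and 70. For runts against controls the replicate block paired arrays by number within each day. For the steps between days it was a term for each replicate number, shared by all days and both fetus types. The replicate block gave 2 instead of 1 for runts between days 37 and 50, and changed no other count by over 1.5 times. For all probes it called 58 instead of 24 between runts and controls at day 50, with GLUL's brightest probe at 0.94 (adjusted p = 0.253), and 18 of 32 arrays correlated best with their own number. Leaving out 1 array gave 1 to 3 for runts and 0 to 1 for controls between days 37 and 50, and 1 to 2 for controls between days 50 and 70. Reversed signs were found for GLUL between runts and controls within slides 1 to 3, at day 37 on 1 probe (-0.12) and at day 70 on all 4 (-0.58, -0.73, -0.85 and -0.72). The cause of these moved counts and reversed signs was not tested.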
